A study of Mus musculus with 4 samples.

Results

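The genes described here make, remove and sense prostaglandins, and were followed in MC38, a mouse line labelled as colon cancer cells and transfected with TetOn-CXCL14, a construct from which doxycycline drives expression of the secreted chemokine CXCL14. They were chosen by symbol: the cyclooxygenases Ptgs1 and Ptgs2, the prostaglandin E synthases Ptges and Ptges2, the prostacyclin synthase Ptgis, the prostaglandin E receptors Ptger1 to Ptger4, and the prostaglandin dehydrogenase Hpgd. All 10 were among the 22186 genes in the deposited tables. The 4 RNA sequencing libraries came from 2 cultures given doxycycline at 1 µg/mL (DOX) and 2 control cultures given the solvent PBS, all of the same TetOn-CXCL14 line, and all harvested after 72 h per the labels' protocols. The series' design text instead describes collection before and after induction over 3 days. No library had doxycycline without the construct, so an effect of doxycycline itself and of CXCL14 cannot be told apart, and the sources used here do not say whether the line is 1 clone.

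Prostaglandins are made from arachidonic acid that phospholipases free from membranes. A cyclooxygenase turns the acid into prostaglandin H2, and a terminal synthase turns that into prostaglandin E2, prostacyclin or another prostanoid. Ptgs1 is the widely expressed form and Ptgs2 the one induced by inflammatory signals, and in colon cancer PTGS2 and prostaglandin E2 are known for promoting tumour growth, while HPGD, which inactivates prostaglandin E2, is often lost.

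The sequences around the annotated starts of Ptgs2 and Ptges, the abundant members that fell most, and of Ptgs1, the other cyclooxygenase, are shown to set the inducible genes beside the widely expressed one. Each is a RefSeq promoter window of build GRCm38.p6, from 250 bases before to 30 bases after the start, 5′ to 3′ on the gene's strand. Capitals mark matches, on either strand, to any of 8 motifs, which may overlap: a C/EBP-type motif TTNCNNAA, an E-box CACGTG, a CRE half-site CGTCA, an NF-kappaB-type motif GGGNNTTNC, an AP-1-type motif TGANTCA, a GC box GGGCGG, an EGR-type motif GCGNGGGCG and a TATA box TATAAA.
Ptgs2, chr1:150099781-150100060, plus strand: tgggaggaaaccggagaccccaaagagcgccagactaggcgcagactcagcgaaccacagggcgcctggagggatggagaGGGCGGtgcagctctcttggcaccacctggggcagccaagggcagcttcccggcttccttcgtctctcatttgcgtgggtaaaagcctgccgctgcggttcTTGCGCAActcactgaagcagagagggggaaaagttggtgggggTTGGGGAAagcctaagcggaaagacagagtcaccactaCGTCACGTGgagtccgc
Ptges, chr2:30903268-30903547, minus strand: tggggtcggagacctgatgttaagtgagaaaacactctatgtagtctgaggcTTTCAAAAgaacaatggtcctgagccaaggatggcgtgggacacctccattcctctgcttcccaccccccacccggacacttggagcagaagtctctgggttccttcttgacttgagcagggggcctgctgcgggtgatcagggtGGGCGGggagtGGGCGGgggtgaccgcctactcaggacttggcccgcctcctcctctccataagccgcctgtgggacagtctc
Ptgs1, chr2:36230176-36230455, plus strand: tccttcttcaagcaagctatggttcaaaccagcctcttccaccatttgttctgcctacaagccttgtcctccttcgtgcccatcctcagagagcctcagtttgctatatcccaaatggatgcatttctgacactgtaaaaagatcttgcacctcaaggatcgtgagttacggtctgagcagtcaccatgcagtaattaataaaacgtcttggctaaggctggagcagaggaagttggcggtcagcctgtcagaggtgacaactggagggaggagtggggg

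The Ptgs2 window held a GC box, which starts 170 bases before the annotated start, and 2 C/EBP-type matches, of which the first, TTGCGCAA, starts 69 bases before it. It also held a CRE half-site overlapping an E-box in the run CGTCACGTG just after the start. The Ptges window held 2 GC boxes, which start 53 and 42 bases before the start, and 1 C/EBP-type match, TTTCAAAA. The Ptgs1 window held none of the 8 motifs. Among 32851 RefSeq windows of the same length, 39.3% held the C/EBP-type motif, 34.7% the GC box, 19.9% the CRE half-site, 14.4% the NF-kappaB-type motif, 13.1% the TATA box, 7.46% the AP-1-type motif, 6.79% the E-box and 5.30% the EGR-type motif. Windows were at hand for 8 of the 10 members. Of those not shown, the Ptges2 window held 1 C/EBP-type match and 1 E-box, and the Ptger2 window 2 C/EBP-type matches. Hpgd had 1 C/EBP-type match, 1 GC box and 1 TATA box. Ptger3 had 3 GC boxes, and Ptger4 had 4 GC boxes and 1 NF-kappaB-type match. Whether the motifs bear on the changes was not tested. A match is a string of letters, not a measured binding site.

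Ptges fell 5.41-fold and Ptgs2 3.23-fold in DOX cultures, and Ptges2 and Ptger4 also fell, while Ptgs1 and Ptger1 did not pass the test. Levels are in TPM, a relative transcript abundance corrected for transcript length, so that levels of different genes can be compared. Where the mean over the libraries reached 1 TPM, a gene was tested with limma on log2(TPM + 1), which gave 11359 genes tested, and it is called at a Benjamini-Hochberg adjusted p under 0.05. Of the 10 members, 6 were tested, 4 were called lower and 0 higher. The background is broad, since 35.4% of all genes tested were called lower, 29.0% higher and 64.4% either way. Calls with a log2 fold change of -1 or below were rarer, at 7.76% of genes tested, and among the members these were Ptgs2 and Ptges. Ptger4 missed that cut (-0.96) but lay below it with a pseudocount of 0.5 TPM (-1.28) or 0.1 TPM (-1.75). The DOX and control values did not overlap for the 4 called members, nor for 82.7% of all genes tested. Ptger4 passed the level filter only through the controls, so the counts over tested members lean on that choice. The tables hold no read counts, and the depth of each library is unknown. With 2 libraries against 2, an exact permutation of a single gene cannot go below p = 0.33, so each adjusted p-value leans on a spread estimated from many genes together.

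Cxcl14, which the construct was built to induce, stood at 385 and 391 TPM in the DOX libraries and at 27.3 and 29.2 TPM in the controls, matching the labels. All 10 colon epithelial markers averaged less than 1 TPM, and 4 of them, Cdh1, Krt19, Cdx1 and Cdx2, were listed at 0 in every library, so these defining transcripts of the labelled cell type were absent or near 0. Summed macrophage markers were 7.54 and 9.06 TPM in DOX and 12.2 and 10.4 TPM in control cultures, with C1qa, C1qc and Laptm5 listed at 0 throughout. Most of that sum was Cd68 and Lyz2, and 8 of the 10 averaged less than 1 TPM. Cd68 was called lower, at 4.77 and 5.12 TPM in DOX and 8.14 and 7.14 TPM in control cultures, and Lyz2 was not called. The 9 fibroblast markers summed to 909 and 823 TPM in DOX and 4053 and 4205 TPM in control cultures, with 4 called lower and 1, Thy1, listed at 0. Most of that sum was Dcn, at 485 and 464 TPM in DOX and 3075 and 3259 TPM in control cultures. Col1a1 was tested and not called, and 4 of the 9, Col1a2, Lum, Fap and Thy1, averaged less than 1 TPM. The fibroblast sum moved with Ptgs2 and Ptges, and its part in their fall was not tested. In such bulk samples, fewer cells of a kind and less RNA per cell cannot be told apart. Mast cell markers, 7 in number, summed to at most 0.185 TPM, and 6 endothelial markers to at most 0.851 TPM.

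**Figure D1:**
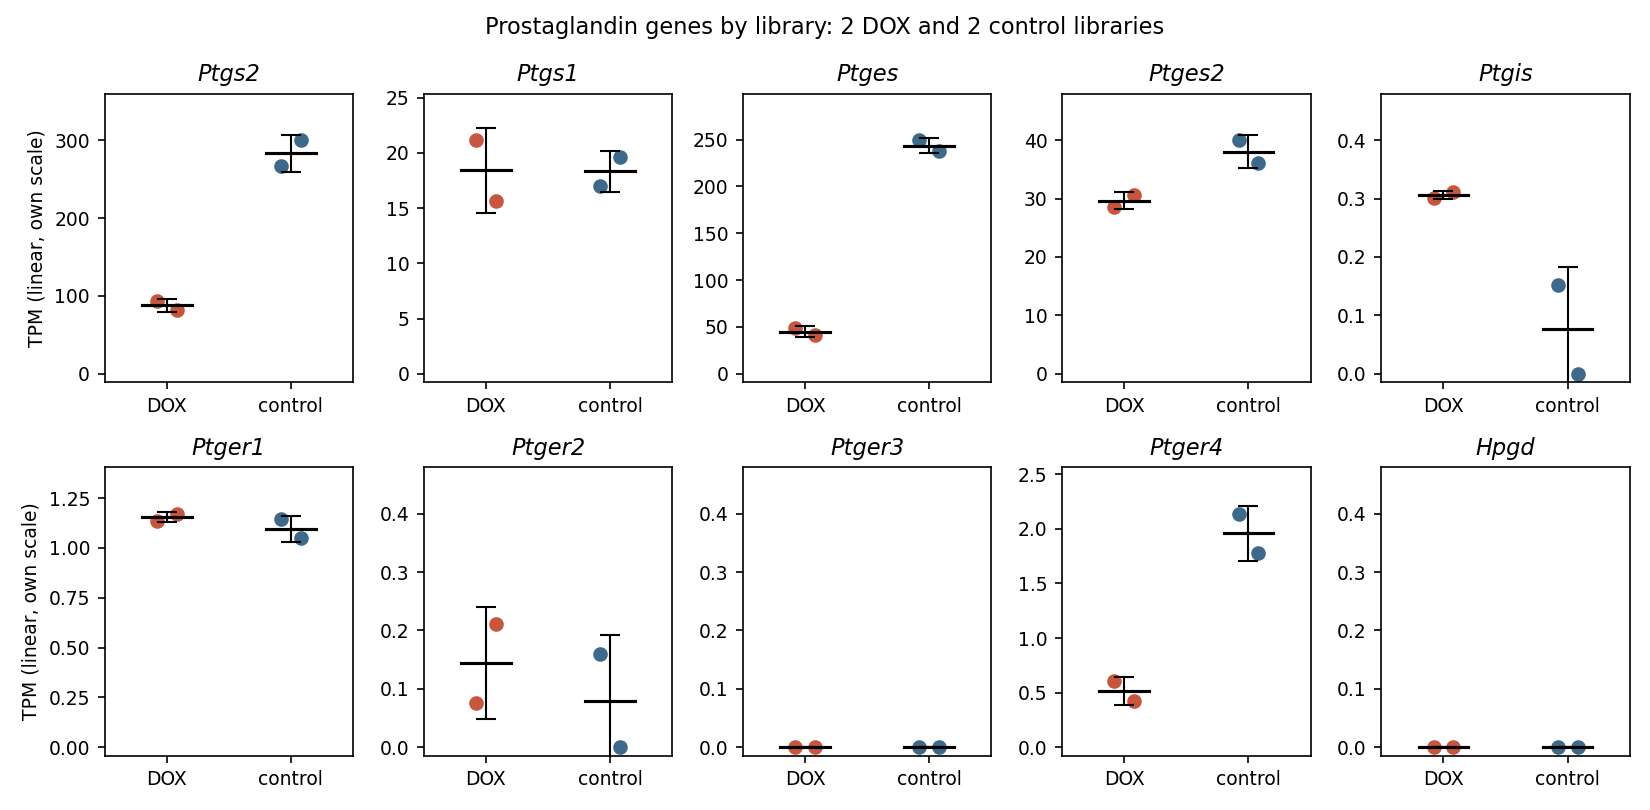
TPM of each of the 10 members in the 2 DOX and 2 control libraries (points), with the group mean (horizontal line) and SD (error bar), each panel on its own linear scale. Ptgs2, Ptges, Ptges2 and Ptger4 lie lower in both DOX libraries than in both control libraries, and Ptger3 and Hpgd are listed at 0 throughout.

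Ptgs2, the inducible cyclooxygenase, stood at 93.7 and 82.1 TPM in the DOX libraries, against 267 and 300.3 TPM in the controls. The groups did not overlap, and both DOX libraries lay far below the lower control. Its mean was 87.9 ± 8.16 TPM in DOX and 284 ± 23.7 TPM in control cultures (SD, n = 2 each), 3.23-fold lower, with a log2 fold change of -1.68 (SE 0.08, limma adjusted p = 3.1e-07). Ptgs2 had the 275th lowest fold change of the genes tested. By level it ranked 2576th of all genes in DOX and 515th in control cultures.

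Ptgs1, the other cyclooxygenase, stood at 21.2 and 15.7 TPM in the DOX libraries and at 17.0 and 19.6 TPM in the controls. Here the DOX libraries lay on either side of the controls. Its means were 18.4 ± 3.88 TPM in DOX and 18.3 ± 1.86 TPM in control cultures (SD, n = 2 each), with a log2 fold change of -0.01 (SE 0.13, limma adjusted p = 0.98). The 95% interval of that change ran from -0.31 to 0.30, that is from 0.807 to 1.23 times the control level.

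The balance of the cyclooxygenases can be read within each library, where any scaling between libraries cancels. TPM of Ptgs2 were 4.43 and 5.24 times those of Ptgs1 in the DOX libraries and 15.7 and 15.3 times in the controls. Ptgs2 thus made up 81.6% and 84.0% of the summed cyclooxygenase TPM in DOX and 94.0% and 93.9% in control cultures. The ratio differed between groups by far more than within them, and Ptgs2 was still the main cyclooxygenase transcript in DOX cultures.

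Ptges, the inducible membrane-bound prostaglandin E synthase that works with Ptgs2, had the largest fall of the tested members. It stood at 49.0 and 41.0 TPM in the DOX libraries and at 249 and 238 TPM in the controls, with no overlap. Means were 45.0 ± 5.66 TPM in DOX and 244 ± 8.17 TPM in control cultures (SD, n = 2 each), 5.41-fold lower, with a log2 fold change of -2.41 (SE 0.08, limma adjusted p = 5.8e-08). It had the 94th lowest fold change of the genes tested. The fall of Ptges exceeded that of Ptgs2 in size, and the ratio of Ptgs2 to Ptges TPM was 1.910 and 2.001 in the DOX libraries and 1.07 and 1.26 in the controls, without overlap, a difference for which the smallest exact p is again 0.33.

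Ptges2, a second membrane-associated prostaglandin E synthase, changed little by comparison. It stood at 28.6 and 30.6 TPM in the DOX libraries and at 40.0 and 36.1 TPM in the controls. The groups did not overlap, and the mean was 1.28-fold lower, at 29.6 ± 1.44 TPM in DOX and 38.0 ± 2.78 TPM in control cultures (SD, n = 2 each, log2 fold change -0.35, SE 0.08, limma adjusted p = 0.0043). A change of this size was common, and Ptges2 ranked 5498th of 11359 by the size of its change. Ptges3, the cytosolic prostaglandin E synthase, also known as the HSP90 co-chaperone p23, went the other way, with 290 and 316 TPM in the DOX libraries and 240.2 and 250.3 TPM in the controls (log2 fold change 0.30, limma adjusted p = 0.0027). Ptges3 has near-identical pseudogenes in GENCODE M21, so its level is uncertain.

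Within each library, Ptges was 1.72 and 1.34 times Ptges2 in DOX and 6.23 and 6.59 times in control cultures. Ptges3 was 5.92 and 7.69 times Ptges in DOX and 0.963 and 1.05 times in control cultures. The prostaglandin E synthase with the highest TPM was thus Ptges3 in both DOX libraries, while in the controls Ptges and Ptges3 were about level. Ptgis, the prostacyclin synthase, was low throughout, at 0.302 and 0.311 TPM in the DOX libraries and at 0.152 TPM and 0 in the controls, too low to be tested.

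**Figure D2:**
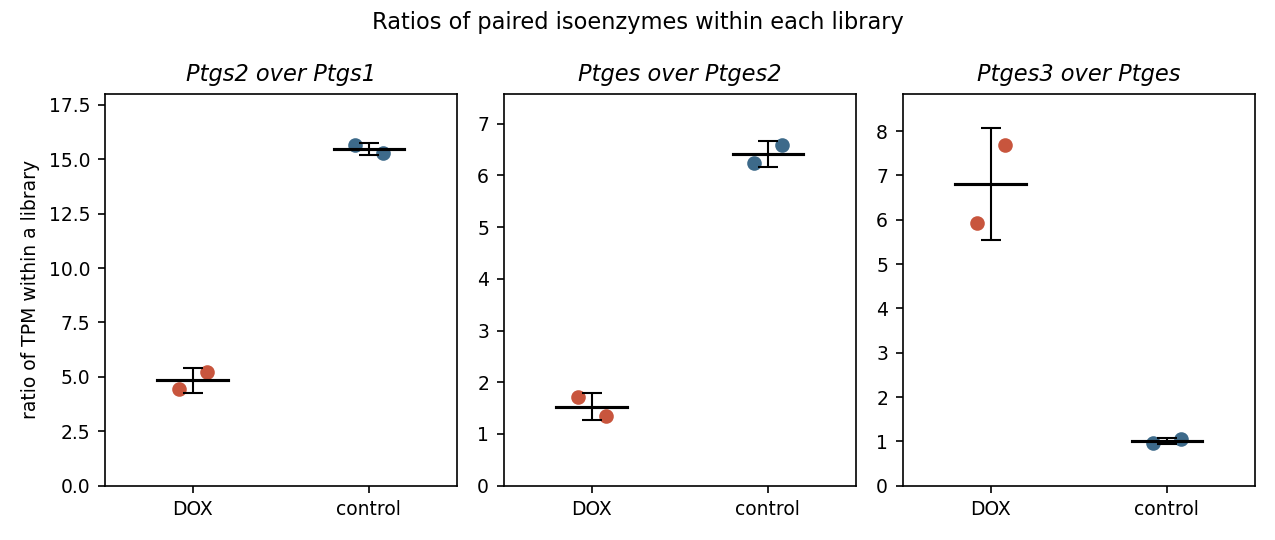
Ratio of TPM within each library for Ptgs2 over Ptgs1, Ptges over Ptges2 and Ptges3 over Ptges, in 2 DOX and 2 control libraries (points), with group mean (line) and SD (error bar), on linear axes from 0. Ptgs2 over Ptgs1 is lower in both DOX libraries (4.43 and 5.24, against 15.7 and 15.3 in the controls), as is Ptges over Ptges2, and Ptges3 over Ptges is higher.

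Receptors for prostaglandin E2 were scarce in every library. The summed TPM of Ptger1 to Ptger4 were 1.82 and 1.81 in DOX and 3.44 and 2.83 in control cultures. Most of the difference lay in Ptger4, a receptor that raises cAMP. Ptger4 stood at 0.605 and 0.427 TPM in the DOX libraries and at 2.14 and 1.78 TPM in the controls, without overlap. Its means were 0.516 ± 0.126 TPM in DOX and 1.96 ± 0.252 TPM in control cultures (SD, n = 2 each), 3.80-fold lower. The log2 fold change was -0.96 (SE 0.17, limma adjusted p = 0.0010) and depends on the pseudocount at this level, reaching -1.75 with a pseudocount of 0.1 TPM. Ptger4 entered the test only through the control level, and with no filter on low values its adjusted p by limma was 0.0032. Exons of Ptger4 share 15.3% of their bases with the opposite-strand gene Gm15937 in GENCODE M21, and whether the quantification used strand is not given in the sources used here.

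Ptger1, a receptor coupled to calcium signalling, stood at 1.14 and 1.17 TPM in the DOX libraries and at 1.14 and 1.05 TPM in the controls (log2 fold change 0.04, 95% interval -0.33 to 0.41, limma adjusted p = 0.85). Its level is uncertain, since strand use in counting is not given in the sources used here. Ptger2, the other cAMP-raising receptor, was listed at 0.0762 and 0.212 TPM in the DOX libraries and at 0.159 TPM and 0 in the controls. Ptger3, a receptor that lowers cAMP, was listed at 0 in all 4 libraries. Hpgd, the dehydrogenase that starts prostaglandin breakdown, was also listed at 0 in all 4.

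The order of the members by mean TPM was Ptgs2, Ptges, Ptges2, Ptgs1, Ptger4, Ptger1, Ptger2, Ptgis in the controls, where only Ptger2 and Ptgis lay closer together than their spread. In DOX cultures the order was Ptgs2, Ptges, Ptges2, Ptgs1, Ptger1, Ptger4, Ptgis, Ptger2, with Ptger1 now above Ptger4. The 10 members summed to 195 and 172 TPM in DOX and 577 and 597 TPM in control cultures. Ptgs2 and Ptges together gave 73.3% and 71.8% of that sum in DOX and 89.5% and 90.2% in control cultures.

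**Figure D3:**
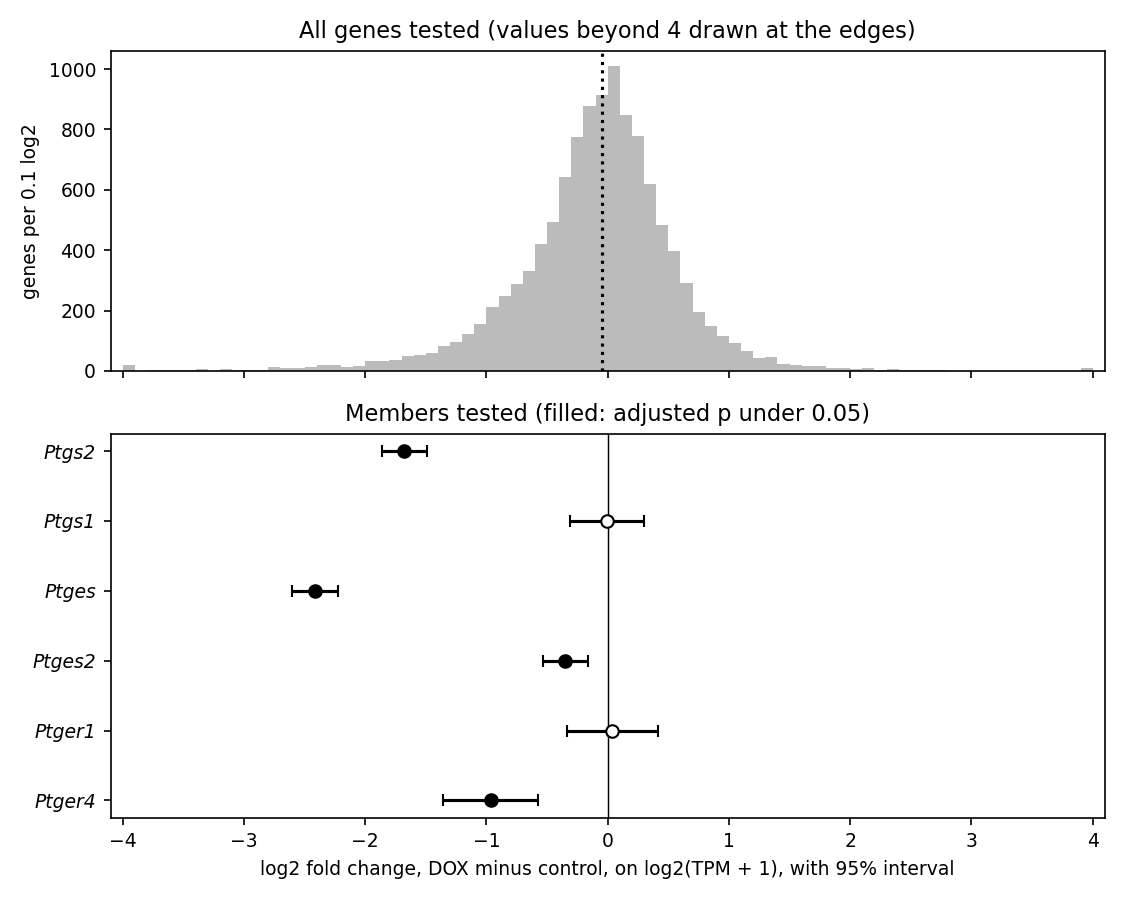
Top, histogram of the log2 fold change (DOX minus control, on log2(TPM + 1)) of all 11359 genes tested, with their median as a dotted line. Bottom, the 6 members tested, with 95% intervals and filled points for an adjusted p under 0.05; Ptges (-2.41) and Ptgs2 (-1.68) lie in the lower tail, and Ptgs1 and Ptger1 lie at 0.

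Genes of the steps around the members went both ways. The lists, here and in later paragraphs, are described by counts and by the median log2 fold change of their tested genes. Over all genes tested that median was -0.04, and 29.0% were called higher and 35.4% lower. Arachidonate release and reuptake had 29 genes in the table, of which 15 were tested, 4 were called higher and 6 lower (median 0.04), or 5 and 4 with either median-of-ratios scaling or quantile normalization. Pla2g4a, the cytosolic phospholipase A2 that supplies cyclooxygenases, stood at 28.3 and 28.8 TPM in DOX and at 32.2 and 35.4 TPM in control cultures (log2 fold change -0.23, limma adjusted p = 0.025). That call was lost with either other scaling (0.087 and 0.15) and without DOX replicate 1 (0.098), DOX replicate 2 (0.071) or control replicate 2 (0.12), adjusted p by limma in each case. Pla2g12a, a secreted phospholipase, rose to 132 and 144 TPM in DOX, against 50.4 and 49.3 TPM in control cultures (log2 fold change 1.45). Anxa1, a phospholipase-binding annexin, fell to 1092 and 923 TPM, against 1885 and 2007 TPM (log2 fold change -0.95). Dagla, a diacylglycerol lipase, fell (-0.64), and the secreted phospholipase Pla2g2e rose (0.52), a call lost without DOX replicate 1 (limma adjusted p = 0.063), without control replicate 2 (limma adjusted p = 0.12) and with no filter on low values (limma adjusted p = 0.076). With either of these libraries left out, 2 genes of the list were called higher. Genes of the release step moved in each direction, as did all genes tested, of which 29.0% were called higher and 35.4% lower.

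Among the other terminal synthases, 6 of 10 were tested, 1 was called higher and 3 lower (median -0.36), or 2 and 2 with either other scaling. Over all genes tested, 29.0% were called higher and 35.4% lower. Ptgds, a prostaglandin D synthase, fell to 7.49 and 7.24 TPM in DOX, against 13.0 and 16.3 TPM in control cultures (log2 fold change -0.90). Akr1b3, an aldose reductase with prostaglandin F synthase activity, fell to 385 and 372 TPM, against 556 and 640.4 TPM (-0.65), and has near-identical pseudogenes in GENCODE M21. Cbr3, a carbonyl reductase, was lower (-0.31, limma adjusted p = 0.039), but the call held in only 7 of 14 alternatives. It was lost without DOX replicate 2 (limma adjusted p = 0.31), control replicate 1 (0.082) or control replicate 2 (0.19), with no filter on low values (0.12), with median-of-ratios scaling (0.084), with quantile normalization (0.40) and with no mean-variance trend (0.054). Without DOX replicate 2, 2 genes of the list were called higher. Hpgds and the thromboxane synthase Tbxas1 were at most 0.185 and 0.203 TPM in any library.

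The list of other prostanoid receptors and related genes held 8, of which 2 were tested and both fell, beside 35.4% called lower among all genes tested. These were the nuclear receptor Ppard (log2 fold change -0.76), at 37.0 and 36.1 TPM in DOX and 66.2 and 59.4 TPM in control cultures, and Ptgfrn, a regulator of the prostaglandin F receptor (-0.49). The membrane receptors Ptgdr, Ptgdr2, Ptgfr, Ptgir and Tbxa2r were all too low to be tested. Ptgdr and Pparg were listed at 0 in all libraries. The prostacyclin receptor Ptgir was listed at 0 and 0.0439 TPM in DOX and at 0.460 and 0.353 TPM in control cultures.

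Breakdown and transport genes beside Hpgd had 7 of 13 tested, with 1 called higher and 4 lower (median -0.77). Over all genes tested the shares were 29.0% higher and 35.4% lower. Slco4a1, an organic anion transporter, fell to 14.1 and 10.6 TPM in DOX, against 81.1 and 93.0 TPM in control cultures (log2 fold change -2.73). Slco3a1, a related transporter that carries prostaglandins, fell to 4.96 and 3.97 TPM, against 23.2 and 25.9 TPM (-2.23). The prostaglandin reductases Ptgr1 and Zadh2, which act after the dehydrogenase, fell (-1.02 and -0.77). Abcc4, an exporter of prostaglandins, rose to 49.1 and 67.0 TPM in DOX, against 37.4 and 34.1 TPM in control cultures (0.67). Slco2a1, the main prostaglandin uptake carrier, was at most 0.242 TPM in any library.

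Downstream of the receptors, the list of EP signalling and cAMP-responsive genes had 30 of 35 tested, with 2 called higher and 20 lower (median -0.47). Among all genes tested, 29.0% were called higher and 35.4% lower. Pde4b, a cAMP phosphodiesterase, fell to 0.930 and 1.11 TPM in DOX, against 8.40 and 9.41 TPM in control cultures (log2 fold change -2.29). Rapgef3, a cAMP-activated exchange factor, fell to 1.12 and 1.55 TPM, against 10.3 and 9.73 TPM (-2.24). Prkar2b, a regulatory subunit of protein kinase A, fell (-1.71), while its relative Prkar2a rose to 78.0 and 85.0 TPM in DOX, against 55.1 and 53.2 TPM (0.58). Nr4a3, an immediate early nuclear receptor, fell (-1.39), having passed the level filter only through the controls. These genes respond to many receptors, and the part of prostaglandin E2 in them was not tested.

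**Figure D4:**
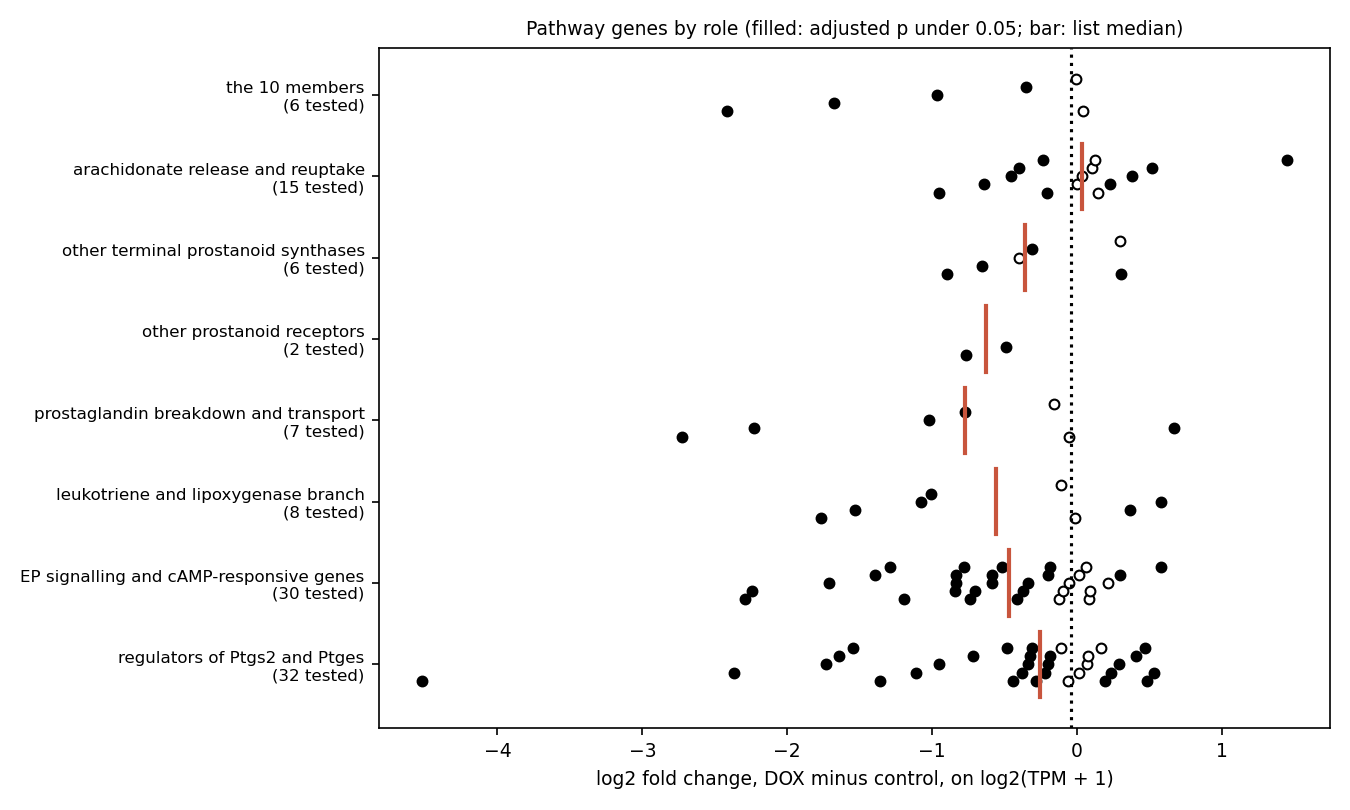
Log2 fold change (DOX minus control, on log2(TPM + 1)) of each tested gene in the members and in 7 lists of pathway genes, filled where the adjusted p was under 0.05, with list medians as bars and the median of all genes tested as a dotted line. EP signalling genes lie mostly below the dotted line (20 lower, 2 higher), and arachidonate release genes lie on both sides (6 lower, 4 higher). Of all genes tested, 35.4% were called lower and 29.0% higher.

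Genes known as regulators of Ptgs2 and Ptges had 32 of 34 tested, with 7 called higher and 19 lower (median -0.25). The shares over all genes tested were 29.0% higher and 35.4% lower. Cebpd, a C/EBP transcription factor that binds the Ptgs2 promoter, fell to 9.77 and 8.63 TPM in DOX, against 228 and 236 TPM in control cultures (log2 fold change -4.52). Cebpb, a related factor, fell to 117 and 125 TPM, against 362 and 349 TPM (-1.55). Egr1, a known activator of Ptges, fell to 16.2 and 16.9 TPM, against 37.7 and 36.1 TPM (-1.11). The interleukin-1 receptor subunits Il1rap (-1.73) and Il1r1 (-1.36) and the antagonist Il1rn (-2.37) also fell. AP-1 subunits went both ways. Fos fell (-1.65) from a low level, to 1.09 and 0.957 TPM in DOX, against 4.93 and 5.76 TPM in control cultures. The more abundant Fosl1 rose to 227 and 234 TPM, against 160 and 172 TPM (0.47), and Jun fell slightly (-0.19). Of the NF-kappaB subunits, Rela rose to 152 and 155 TPM in DOX, against 132 and 118 TPM in control cultures (0.29), while Nfkb1 fell to 85.4 and 80.4 TPM, against 101 and 102 TPM (-0.28). Myd88 and Traf6, adaptors of interleukin-1 signalling, rose (0.48 and 0.41). The mRNA-destabilizing protein Zfp36, which targets Ptgs2, fell (-0.72), and the stabilizing Elavl1 rose (0.23), a call lost without DOX replicate 1 (limma adjusted p = 0.070). Pla2g4a, Abcc4, Cebpb, Egr1, Fosl1, Jun, Il1r1, Prkar2a, Rela, Nfkb1, Myd88, Traf6, Zfp36 and Elavl1 are named for their known roles, after their values were seen.

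The genes with the most similar pattern to a member were sought by the Euclidean distance between log2(TPM + 1) values centred on their mean over the 4 libraries. Nearest to Ptgs2 were Zfp354c (distance 0.0415), a zinc finger gene, Dpt (0.0564), which encodes the matrix protein dermatopontin, and Pros1 (0.0665), which encodes protein S. Nearest to Ptges were Bhlhe40 (0.0657), a transcriptional repressor, Ces1a (0.103), a carboxylesterase, and Serpina3g (0.108), a serpin. Nearest to Ptger4 were Smpd2 (0.0201), a sphingomyelinase, Lmo7 (0.0254) and the protease gene Mmp9 (0.0318). These matches to Ptger4 depend on the pseudocount, since Ptger4 lay near 1 TPM and passed the level filter only through the controls. Smpd2 stood at 19.6 and 17.2 TPM in DOX and at 39.0 and 34.0 TPM in control cultures, a smaller fall in TPM than the 3.80-fold of Ptger4. Ptges was the 868th nearest to Ptgs2 (0.756). With 2 libraries a group, this measure mostly ranks genes by the size of their change.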

How the data were processed

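RNA from 2 DOX and 2 control cultures of MC38-TetOn-CXCL14 was sequenced. The authors deposited TPM and FPKM per gene symbol, per the file headers. The submitters' processing notes name the build mm39. Which aligner, quantifier and annotation were used is not given in these sources. In each library TPM was a constant times FPKM, between 3.08 and 3.14. Low FPKM did not fall on whole-read steps, and depth is unknown. An exact 0 is given as listed at 0. The samples are called biological replicates in the series text.

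TPM were tested with limma 3.58.1 in R 4.3.3 (lmFit, eBayes with a mean-variance trend, two-sided) on log2(TPM + 1) where the mean reached 1 TPM, with no covariate and Benjamini-Hochberg adjustment over all 11359 genes. This scale understates the change of low genes. The fit was tested on simulated data, with no result given here, and the calls do not rest on that test. Alternatives were other pseudocounts, filters, scalings and variance models, FPKM, leaving out each library in turn, and a block for the replicate number. Promoter windows came from RefSeq (GRCm38.p6), whose build differs from mm39, and no coordinates were joined to the tables. Exon overlaps and near-identical copies (blastn 2.17.0, at least 97% identity over at least 100 bases) came from GENCODE M21. Named genes are the 10 members, Cxcl14, the markers, up to 4 called genes of each list with the largest change, and the 3 nearest genes to Ptgs2, Ptges and Ptger4. Some further genes of the lists, among them Abcc4, were named for their known roles after their values were seen. The members and lists were chosen with earlier results of these data known. Replicate numbers in the titles carry no stated shared day or stock.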

Additional observations from a re-analysis of the deposited data

How the results depend on the processing

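Ptgs2, Ptges and Ptges2 remained lower and called in all 14 alternative settings, with log2 fold changes from -1.77 to -1.59, from -2.54 to -2.29 and from -0.42 to -0.27. Ptger4, which entered the test only through the controls, was called lower in 12 of 12 (from -1.75 to -0.61), and fell under the level filter with FPKM and with a minimum of 5 TPM. Ptger1 was called in 0 of 12 (limma adjusted p from 0.065 to 0.97). Ptgs1, never called, changed sign to 0.0082 with FPKM, 0.0602 with median-of-ratios scaling, 0.14 with quantile normalization, and from -0.21 to 0.20 over the settings that left out a replicate, being positive without DOX replicate 2 (0.20) and without control replicate 2 (0.09). With no filter on low values, 1 member was called higher, Ptgis (limma adjusted p = 0.047). The count of all genes called ranged over the settings that left out a replicate from 2776 to 3077 higher and from 3473 to 3656 lower. Median-of-ratios scaling gave 3809 higher and 3552 lower, and quantile normalization 3870 and 3356. With a replicate block, 3387 genes were called higher and 4114 lower, and 4 members lower, as without it. Same-numbered libraries did not deviate together (correlation of their deviations -0.0053 over 11359 genes), so the block was not used. Of the pathway lists, EP signalling genes had 4 called higher under quantile normalization. Other prostanoid receptors had 4 called lower, and arachidonate genes 2 called higher, with no filter. The other terminal synthases had 2 called higher with a minimum of 5 TPM, FPKM, either scaling or the replicate block. Lipoxygenase genes had 1 called higher with a minimum of 5 TPM or FPKM, and 2 called lower with that minimum. With 1 library left in a group, it is assumed to vary like the other group. Without read counts, no counting error could be set on the members below 1 TPM.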

Other observations

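The lipoxygenase branch, which also draws on arachidonic acid, had 21 genes in the table, of which 8 reached the 1 TPM mean and were tested, and 6 were listed at 0 in every library. These included the leukotriene receptors Ltb4r1, Ltb4r2 and Cysltr1 and the synthase Ltc4s. In the tested genes, 2 were called higher and 4 lower (median log2 fold change -0.56). The count of higher calls was smaller without DOX replicate 2 or without control replicate 2. Among all genes tested, 29.0% were called higher and 35.4% lower. The microsomal glutathione transferases, which belong to the same protein family as Ptges, fell: Mgst1 stood at 25.0 and 21.8 TPM in DOX and at 78.1 and 85.9 TPM in control cultures (log2 fold change -1.77, limma adjusted p = 3.0e-07), Mgst2 at 1.73 and 1.82 TPM in DOX and at 7.51 and 6.54 TPM in control cultures (-1.53), and Mgst3 at 14.5 and 11.9 TPM in DOX and at 30.9 and 27.0 TPM in control cultures (-1.08). Alox5ap, the protein that activates leukotriene synthesis and a further relative of Ptges, stood at 0.377 and 0.362 TPM in DOX and at 1.70 and 1.81 TPM in control cultures, passing the level filter only through the controls. Alox5 itself was at most 0.130 TPM in any library.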
